A study of Mus musculus with 37 samples.

Results

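Collagens are the proteins of the extracellular matrix that are built from triple-helical chains, and their genes were followed here through cultures of mouse bone marrow (BM) and osteosarcoma. The members were the 44 genes, of 51123 in the table, whose identifier maps to a protein-coding symbol of the form Col, number, a, number. Expression was measured by RNA sequencing in 37 libraries and is given as TPM (transcript abundance scaled to the same total in every library), a share of the library that is already corrected for transcript length, so that levels of different genes can be compared. The experiment was made in mice in which Osx1-Cre, a recombinase expressed in progenitors committed to bone, deleted Trp53 alone (single knockout, SKO) or Trp53 and Wwox together (double knockout, DKO), with a tdTomato reporter switched on in the same cells.

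Marrow of young knockout mice without tumors was called yBM, marrow of tumor-bearing knockout mice BMT, and the osteosarcoma itself tumor, while control BM came from wild-type mice that the design text describes as Cre negative. A first set held 4 control BM, 6 DKO yBM, 3 DKO BMT and 3 DKO tumor libraries, in which DKO yBM libraries 1 to 3 were taken at 1.5 months and 4 to 6 at 4 months. A second set held 21 libraries, 3 of control BM and 3 each of yBM, BMT and tumor from SKO and from DKO mice, for which the labels give no age. The cells were grown in culture, so the values describe cultured cells and not fresh tissue. The study's methods give passaging until tdTomato-positive cells dominated, which control cells without Cre could not meet. Control and knockout cultures may therefore not have been enriched alike. Osx1-Cre is also active in marrow stromal cells, which limits what a knockout culture stands for. For the first set, the study's methods count mice in the same numbers as the libraries, although BMT is elsewhere described as paired with the tumor, and the labels do not say which BMT and tumor libraries, if any, came from 1 mouse. For the second set no number of animals is given, so a p-value there is a statement about the spread among libraries, which may be technical.

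The collagen family is divided by how its molecules assemble. Fibrillar collagens (types I, II, III, V, XI, XXIV and XXVII) form the cable-like fibrils of bone, skin and cartilage, and type I is the main protein of bone matrix. Type IV forms the sheet of the basement membrane, and types VII, XV and XVIII sit in the zone around it. Network collagens (types VIII and X) form lattices, type VI forms beaded filaments, and the fibril-associated collagens with interrupted triple helices (FACIT) decorate the surface of fibrils. Transmembrane collagens are anchored in the cell membrane.

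The start regions of genes on which the results turn are shown first, as RefSeq gives them for the mouse assembly GRCm38.p6, each 5′ to 3′ on the gene's own strand from 250 bases before to 50 bases after the transcription start. Windows were matched for 35 of the 44 genes. Col4a1 (chr8:11312777-11313076, minus strand) and Col4a2 (chr8:11312555-11312854, plus strand) encode the chains that make the common type IV molecule, and they lie head to head with start sites 21 bases apart. They are printed because their levels ran in parallel over the libraries, and the capitals mark the 78 bases (chr8:11312777-11312854) that both windows hold, read on opposite strands.
Col4a1: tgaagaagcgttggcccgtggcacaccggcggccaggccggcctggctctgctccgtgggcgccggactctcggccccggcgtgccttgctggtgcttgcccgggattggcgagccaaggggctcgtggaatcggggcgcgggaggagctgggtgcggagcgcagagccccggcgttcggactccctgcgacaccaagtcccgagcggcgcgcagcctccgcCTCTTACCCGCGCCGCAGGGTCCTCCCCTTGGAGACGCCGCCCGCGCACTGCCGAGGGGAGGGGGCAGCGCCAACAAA
Col4a2: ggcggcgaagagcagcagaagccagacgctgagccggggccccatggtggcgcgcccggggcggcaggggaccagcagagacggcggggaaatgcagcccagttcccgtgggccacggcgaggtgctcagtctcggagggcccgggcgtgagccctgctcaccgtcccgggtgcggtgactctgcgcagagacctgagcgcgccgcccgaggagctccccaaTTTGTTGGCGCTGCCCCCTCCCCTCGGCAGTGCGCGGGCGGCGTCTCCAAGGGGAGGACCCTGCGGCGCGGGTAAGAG
The next 4 windows belong to collagens that differed from control BM in at least 1 comparison: Col7a1 (chr9:108953336-108953635, plus strand), Col8a1 (chr16:57754688-57754987, minus strand), Col10a1 (chr10:34389731-34390030, plus strand) and Col27a1 (chr4:63215162-63215461, plus strand). Capitals mark matches, on either strand, to TATAAA (the TATA box core), to CCAAT (the box of that name), to GGGCGG (the GC box), to TGANTCA (the AP-1 element) or to the p53 half-site. The motifs were counted independently of each other.
Col7a1: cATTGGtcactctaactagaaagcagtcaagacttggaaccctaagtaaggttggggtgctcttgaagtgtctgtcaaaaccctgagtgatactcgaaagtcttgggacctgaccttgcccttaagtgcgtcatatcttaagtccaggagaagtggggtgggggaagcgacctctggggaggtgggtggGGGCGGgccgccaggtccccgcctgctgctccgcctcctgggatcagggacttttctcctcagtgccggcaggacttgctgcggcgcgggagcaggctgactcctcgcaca
Col8a1: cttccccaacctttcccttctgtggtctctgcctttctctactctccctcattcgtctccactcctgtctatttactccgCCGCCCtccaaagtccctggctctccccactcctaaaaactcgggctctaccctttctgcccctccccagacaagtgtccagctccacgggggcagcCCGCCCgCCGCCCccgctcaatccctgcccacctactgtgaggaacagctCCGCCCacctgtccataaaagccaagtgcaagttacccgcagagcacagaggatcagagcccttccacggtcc
Col10a1: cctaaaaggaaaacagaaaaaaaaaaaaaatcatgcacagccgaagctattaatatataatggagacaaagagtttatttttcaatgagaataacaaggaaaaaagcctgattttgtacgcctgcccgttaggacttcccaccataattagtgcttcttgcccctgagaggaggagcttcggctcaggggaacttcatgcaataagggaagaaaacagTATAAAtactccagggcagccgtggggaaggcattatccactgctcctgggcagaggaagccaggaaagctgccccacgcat
Col27a1: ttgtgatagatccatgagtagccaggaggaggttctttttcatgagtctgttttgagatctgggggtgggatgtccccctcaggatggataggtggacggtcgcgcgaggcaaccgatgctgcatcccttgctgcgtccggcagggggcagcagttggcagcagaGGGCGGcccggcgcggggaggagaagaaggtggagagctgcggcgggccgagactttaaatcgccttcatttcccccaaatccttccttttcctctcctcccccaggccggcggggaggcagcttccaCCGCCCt

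The Col10a1 window, with 44.3% G and C, held TATAAA from 32 to 27 bases before the start and no GGGCGG. Col8a1 held 4 matches to GGGCGG, Col27a1 held 2, and Col7a1 held 1 beside a CCAAT match at its far end. The Col4a1 and Col4a2 windows were the richest in G and C of those shown, at 74% and 73.7% against a median of 52.7% over all 32851 windows. Over the 38 windows of collagen genes, GGGCGG was present in 60.5%, against 35.7% of all windows. The shares for TATAAA were 13.2% and 13.6%, for CCAAT 34.2% and 37.4%, for TGANTCA 2.63% and 7.81%, and for the p53 half-site 10.5% and 8.36%. A match is a run of letters and was not tested as a binding site.

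Some libraries went against their labels. Wwox was at 50% or more of the control mean in 7 of 12 DKO libraries of set 1 (yBM 2 to 6, BMT 1 and tumor 1) and in all 3 DKO tumor libraries of set 2, 1 control BM library of set 1 was itself at 32%, and SKO BMT 2 and 3 of set 2 were at 2.84% and 2.39% although their label gives Trp53 deletion alone. Trp53 was at 50% or more in DKO BMT 2 and 3 of set 1, at 63.3% and 72.1%, and below 50% in the other 28 knockout libraries. TPM of the whole gene cannot show whether only some exons were lost. Leukocyte markers, a list of 12 genes that includes Ptprc and Csf1r, also separated the libraries. Their mean log2(TPM + 1) was 8.06 to 8.35 in the control BM of set 2 against 0.22 to 1.05 in 16 of its 18 knockout libraries, with SKO BMT 2 at 4.97 and DKO BMT 2 at 4.02. In set 1 it was 5.54 to 7.79 in control BM, 4.30 to 7.40 in yBM, 6.93 to 7.13 in BMT, and 5.64, 0.33 and 0.66 in tumors 1 to 3. All 12 markers reached 1 TPM in every control library, and 0 to 4 of them did so in those 16 knockout libraries. Group and leukocyte level therefore cannot be told apart in set 2, and in bulk RNA fewer cells of a type cannot be told apart from less RNA per cell.

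**Figure D1:**
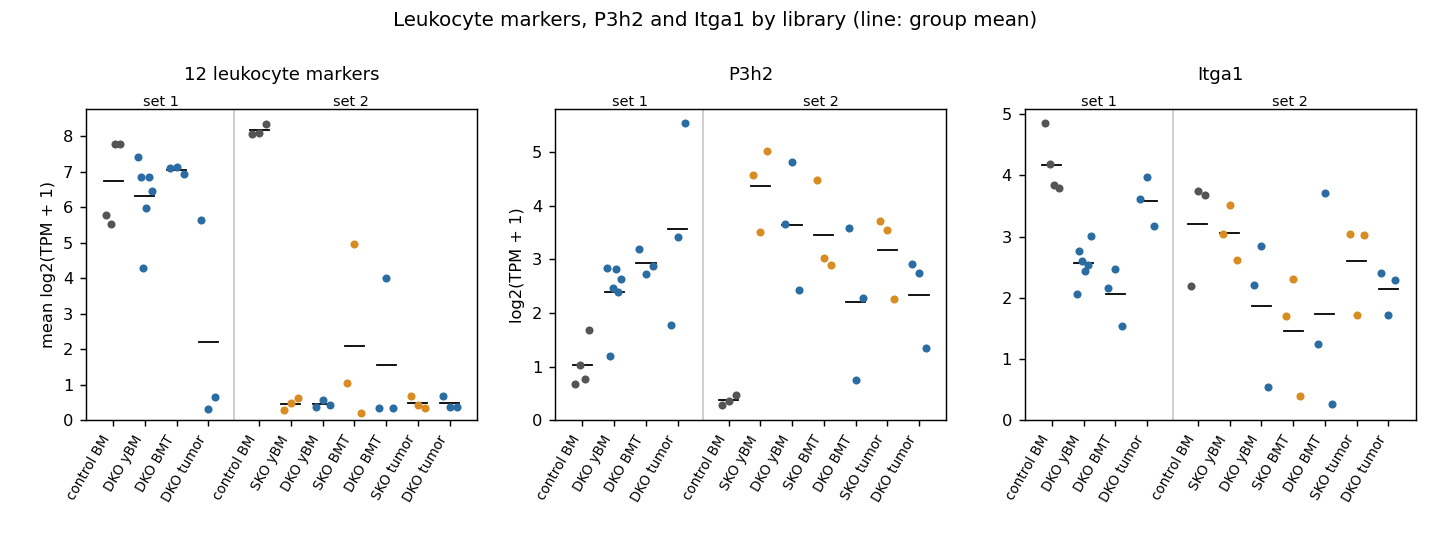
Mean log2(TPM + 1) of 12 leukocyte markers (left), and log2(TPM + 1) of P3h2 (middle) and Itga1 (right), on the y axes, by group on the x axes, with 1 point per library and a line at the group mean. Leukocyte markers lay between 8.06 and 8.35 in set 2 control BM and at or below 1.05 in 16 of 18 knockout libraries, P3h2 was lowest in control BM of set 2, and Itga1 was highest in control BM of set 1.

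Collagen mRNA made up 0.756% of all TPM on average over the 37 libraries, with a range from 0.148% to 2.95%. Of the 44 genes, 15 reached 1 TPM in every library and 10 in no library. The 15 were Col1a1, Col1a2, Col3a1, Col5a1 and Col5a2 among fibrillar members, Col4a1, Col4a2 and Col4a5 of type IV, Col18a1, Col8a1, the type VI genes Col6a1, Col6a2 and Col6a3, and the FACIT genes Col12a1 and Col16a1. Col1a1 (2363 TPM), Col1a2 (1569 TPM) and Col3a1 (1089 TPM) had the highest mean levels. The silent end held the chains of cartilage type IX (Col9a1, Col9a2 and Col9a3, highest value 0.57 TPM), the kidney and eye type IV chains Col4a3 and Col4a4 with Col4a6 (highest 0.665 TPM), Col6a6, Col17a1, Col19a1 and Col25a1. Col9a1 was listed at 0 in 29 of 37 libraries.

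The make-up of the collagen mRNA differed between control BM and knockout cultures. It is given as the share of each library's summed collagen TPM, which no scaling between libraries can change, and with no test. Fibrillar genes held 58% to 91.3% of it. Type I, the bone matrix collagen, took 29% to 46.6% in the 4 control BM libraries of set 1 and 48.3% to 58.5% in the 6 DKO yBM libraries, so the groups did not overlap. In set 2 it took 25.8% to 31.6% in control BM. The values there were 42.5% to 47.2% in SKO yBM, 48.7% to 57.8% in DKO yBM, 48% to 62.6% in DKO BMT, 37.6% to 48.9% in SKO tumor and 47.7% to 50.1% in DKO tumor, each group above every control library. SKO BMT of set 2 (25.1% to 78%), DKO BMT of set 1 (42.6% to 79%) and DKO tumor of set 1 (43% to 58.1%) overlapped their controls. Osteoblast markers, a list of 8 genes that includes Runx2 and Sp7, had a mean log2(TPM + 1) of 2.53 to 5.06 in set 1 control BM and 3.98 to 5.84 in DKO yBM, with 0 of 8 called. In set 2 it was 2.38 to 3.72 in control BM, 4.54 to 5.40 in SKO yBM (1 of 8 called higher) and 2.96 to 4.95 in DKO yBM (0 of 8). It was 2.10 to 4.24 in DKO BMT (0 of 8), 1.49 to 4.31 in SKO tumor (0 of 8) and 1.73 to 3.64 in DKO tumor (1 of 8 called lower), groups whose type I share also lay above control. Its part in the type I share was not tested.

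Type III, the collagen of pliable tissue that forms fibrils together with type I, showed the opposite order in its share. Shares of 1 total depend on each other, so a larger type I share by itself lowers the rest. Col3a1 took 26.3% to 33.6% of collagen TPM in the control BM of set 2 and 2.66% to 20.5% in its 18 knockout libraries, with no overlap in any group. Its mean level there was 1102 TPM in control BM, 718 in SKO yBM, 443 in DKO yBM and 1001 in SKO BMT. It was 1462 TPM in DKO BMT, 1319 in SKO tumor and 1383 in DKO tumor, so the mean was not lower in these groups. Their libraries spread widely, with 1284, 3064 and 39.5 TPM in DKO BMT and 1582, 220 and 2153 in SKO tumor. DKO tumor held 2628, 1130 and 392 TPM, and control BM 654, 1161 and 1491. Each of these knockout groups held a library below every control and another above every control. In set 1 Col3a1 took 15.4% to 27.8% of collagen TPM in control BM and 3.1% to 9.59% in DKO BMT. DKO yBM (10.5% to 16.4%) and DKO tumor (2.45% to 18.7%) overlapped the controls. The mean levels were 1867 TPM in control BM, 814 in DKO yBM, 491 in DKO BMT and 1399 in DKO tumor. The ratio of Col3a1 to Col1a1 TPM was 0.741 to 1.62 in set 1 control BM and 0.277 to 0.473 in DKO yBM. The main fit held all groups and libraries of a set together, on the log2(TPM + 1) scale and without a covariate. As single genes in it, Col1a1, Col1a2 and Col3a1 were called in none of the 12 comparisons. Their levels ranged widely within groups (Col1a1 506 to 5569 TPM in set 1 control BM). In fits of only the 2 groups compared, Col1a2 was called higher in set 2 SKO yBM (1.89, limma adjusted p = 0.0298) and DKO yBM (1.60, 0.0485). The difference described here is that of their proportions inside each library.

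**Figure D2:**
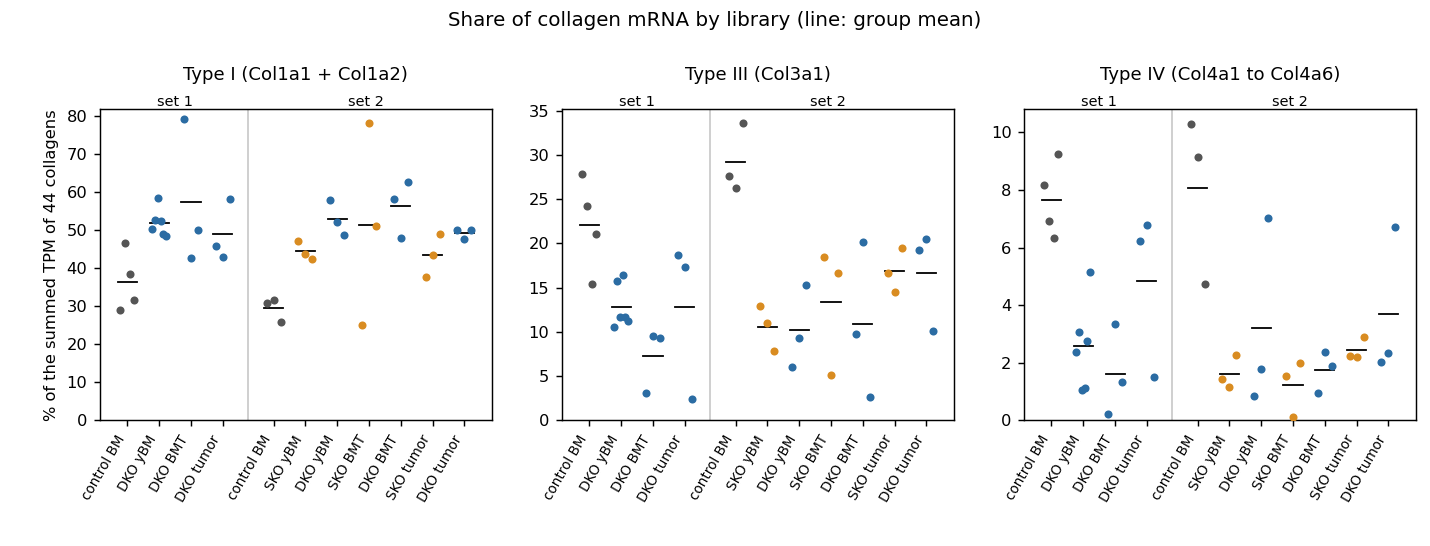
Share of the summed TPM of 44 collagens, in % on the y axes, taken by type I (left), type III (middle) and type IV (right) in each library, by group on the x axes, with a line at the group mean. Type I lay higher and type III lower than set 2 control BM in most knockout libraries, and type IV was 6.33% to 9.25% in set 1 control BM against 1.07% to 5.16% in DKO yBM.

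Type IV, the basement membrane collagen, took the smaller share in knockout marrow. It held 6.33% to 9.25% of collagen TPM in set 1 control BM, 1.07% to 5.16% in DKO yBM and 0.218% to 3.34% in DKO BMT, with no overlap. In set 2 the control range of 4.73% to 10.3% lay above SKO yBM (1.15% to 2.27%), SKO BMT (0.124% to 1.99%), DKO BMT (0.961% to 2.39%) and SKO tumor (2.21% to 2.9%). It overlapped DKO yBM (0.85% to 7.02%) and DKO tumor (2.02% to 6.71%), in each of which 1 library stood high. DKO yBM 1, the only yBM library of set 1 with Wwox under 50% of control, had a type IV share of 2.36% and a type I share of 50.3%.

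Col4a1 carried the called change of this class. Its TPM was 484, 832, 154 and 230 in set 1 control BM and 30.2, 113, 71.4, 93.9, 31.5 and 95.3 in DKO yBM 1 to 6. Every yBM library lay below every control library. The difference was -2.41 on the log2(TPM + 1) scale (SE 0.67, limma adjusted p = 0.0422), and it was called in a comparison in which 7.81% of the 14404 genes tested were called and 6.14% were called lower. DKO BMT held 25.7, 84.2 and 48 TPM of Col4a1, also below every control, and was not called. DKO tumors 1 and 2 held 585 and 414 TPM, within the control range, while tumor 3 held 48.3. In set 2 control BM held 176, 281 and 136 TPM against 47.2, 68.4 and 55.6 in SKO yBM, where the gene was not called. The call rested on single libraries: it was lost without any 1 of DKO yBM 1, 3, 5 or 6 or of control BM 1, 2 or 4 (adjusted p 0.0631 to 0.121). Without the yBM libraries in which Wwox went against the label, 1 yBM library remained and the difference was -3.47 (adjusted p = 0.439).

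Col4a2 followed Col4a1 in level. Over the 37 libraries Col4a1 spanned 15 to 832 TPM, while the ratio of Col4a1 to Col4a2 stayed between 1.52 and 3.88 with a mean of 2.43. The ratio was 2.56 to 3.88 in set 1 control BM and 1.74 to 2.71 in DKO yBM. The ratio of Col1a1 to Col1a2 lay between 0.507 and 2.59, that of Col6a1 to Col6a2 between 0.863 and 1.75, and that of Col5a1 to Col5a2 between 0.205 and 1.54. Col4a5, a chain of a different type IV molecule, did not share the order of the pair: it was at 3.04 to 6.1 TPM in set 1 DKO yBM against 1.53 to 26.2 in control BM. Over the 3 tested type IV genes the median difference from control BM was below 0 in each of the 9 comparisons and under each of the 3 scalings tried. With the deposited scaling it ran from -2.48 in set 2 SKO BMT to -0.24 in set 1 DKO tumor, and over all 3 scalings from -2.64 to -0.18 in the same groups. These comparisons share their controls, and the 3 genes include the parallel pair Col4a1 and Col4a2. The highest of the 3 differences was above 0 in set 1 DKO tumor (0.60) and in every set 2 group except SKO BMT. It reached 1.37 in set 2 DKO tumor. Col4a5 was at 16.3, 20.5 and 17.7 TPM there, against 1.65, 12 and 10.7 in set 2 control BM. Between set 1 DKO tumor and DKO BMT the difference was 2.25 for Col4a1, 1.93 for Col4a2 and 1.67 for Col4a5, with adjusted p of 0.254 or more for each, in a comparison that called 0.257% of genes and 0 collagens (4 at an unadjusted p under 0.05).

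**Figure D3:**
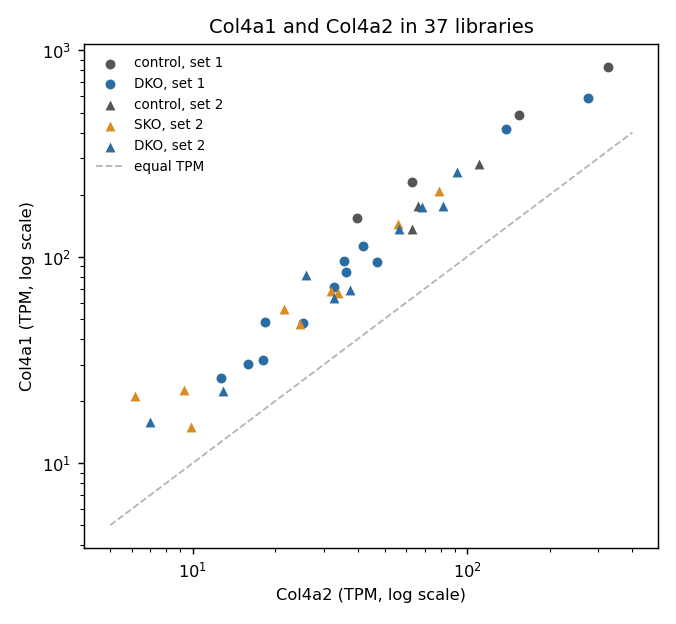
TPM of Col4a1 (y axis, log scale) against TPM of Col4a2 (x axis, log scale), 1 point per library for 37 libraries, with the colour for genotype, the shape for set and a dashed line at equal TPM. The points run in a narrow band above the line, with a ratio between 1.52 and 3.88, and set 1 control BM lies toward the upper end.

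Across all tested collagens, calls were few. Of 28 collagens tested in set 1 and 25 in set 2, 16 genes were tested in neither. In set 1, DKO yBM had 3 collagens lower and 0 higher, and DKO BMT had 2 lower (Col27a1 and Col8a1) in a comparison that called 2.35% of all genes, and 1.4% as lower. DKO tumor had 0 (2 at an unadjusted p under 0.05) where limma called 3.39% of genes. In set 2, SKO yBM had 2 collagens called where 13.5% of all genes were called, 5.78% higher and 7.77% lower. DKO yBM had 1 (19.5% of genes, 10.2% lower) and DKO BMT had 1 (12% of genes, 4.22% higher). SKO BMT had 2 (13.4% of genes, 8.36% lower), SKO tumor had 2 (11.6% of genes, 9.57% lower) and DKO tumor had 3 (17.2% of genes, 7.71% higher and 9.48% lower). The collagens called were 10.7%, 7.14% and 0% of those tested in set 1 and 4% to 12% in set 2, so in every set 2 comparison with control BM their share was below that of all genes, while the shares in set 1 DKO yBM and DKO BMT rest on 3 and 2 genes. Higher calls were made for 1 gene, Col7a1, and the other calls were lower. With leukocyte level as a covariate, Col7a1 was not called, and higher calls in set 2 were made instead for Col1a2, Col8a1 and Col8a2 in SKO yBM, for Col1a1 and Col1a2 in SKO BMT and in DKO BMT, for Col8a2 in SKO tumor and for Col1a1 in DKO tumor. These covariate differences were large: 10.66 for Col8a2 in SKO yBM, where no network gene exceeded 3.09 in the main fit. For Col1a1 in DKO tumor it was 8.30, where no fibrillar gene exceeded 1.79. Within set 2 groups the leukocyte level varied mainly through SKO BMT 2 and DKO BMT 2. The fit extrapolates from them to control BM, so these calls cannot be read as a rise at equal leukocyte level. Groups whose libraries do not overlap were frequent. Against control BM this held for 14.3%, 16.8% and 15.5% of all genes in DKO yBM, BMT and tumor of set 1. In set 2 it held for 48.1% of genes in SKO yBM, 45.1% in DKO yBM, 34.6% in SKO BMT, 29.3% in DKO BMT, 22.9% in SKO tumor and 39.7% in DKO tumor. It held for 13.1% between tumor and BMT of set 1, and between DKO and SKO for 17.9% in yBM and 8% in tumor. The separation of a single collagen is to be read against these shares.

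**Figure D4:**
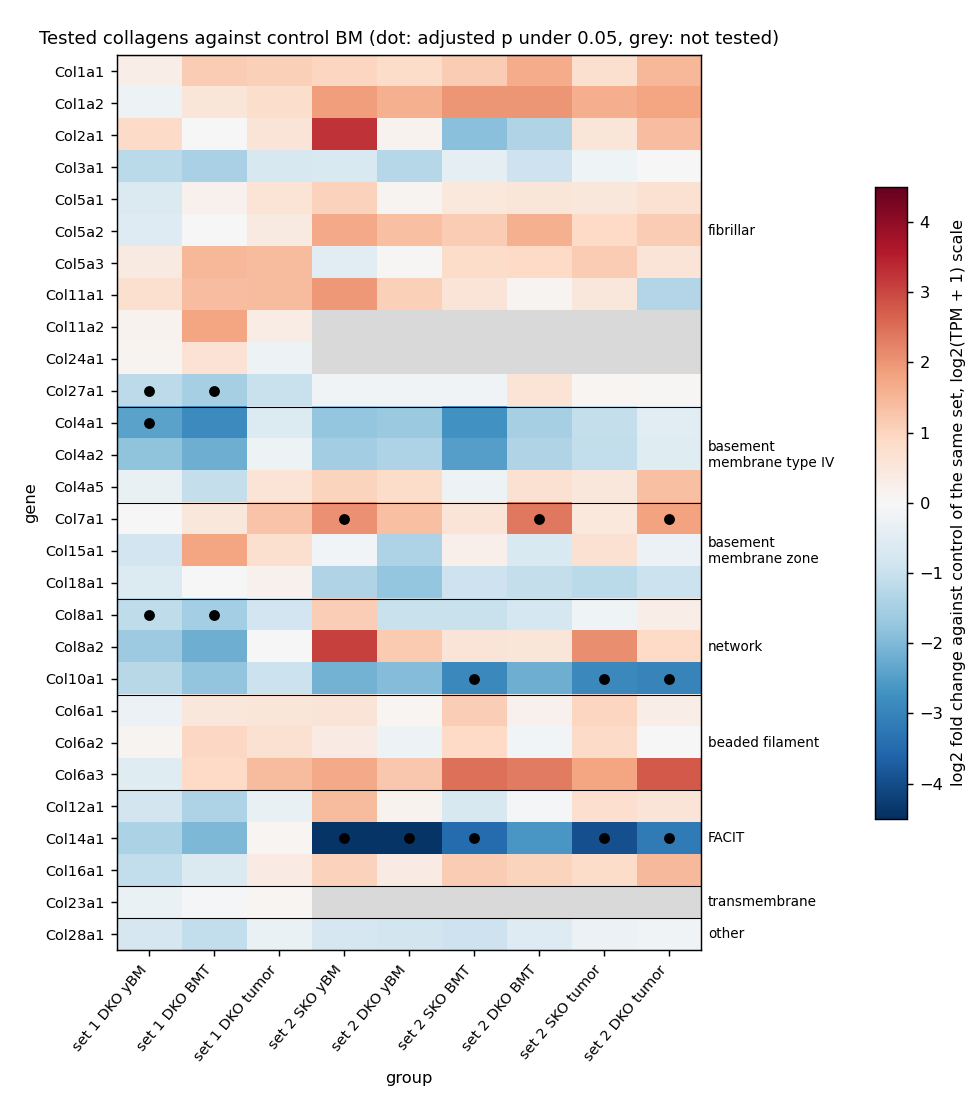
Difference from control BM of the same set on the log2(TPM + 1) scale (colour, blue lower and red higher) for each tested collagen (y axis, grouped by class) in 9 knockout groups (x axis), with a dot where the limma adjusted p was under 0.05 and grey where the gene was not tested. Col14a1 held the largest negative values in set 2 and Col7a1 alone was called higher in these fits, which hold no leukocyte covariate.

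The class medians on the log2(TPM + 1) scale were spread around the median of all genes. In set 1 DKO yBM the median was -1.81 over 3 type IV genes, -1.25 over 3 network genes, -1.10 over 3 FACIT genes and 0.13 over 11 fibrillar genes, against -0.22 over all genes. In set 2 SKO yBM it was -1.55 for type IV, 1.12 for network, 1.04 for FACIT and 1.03 for fibrillar genes, against 0.24 over all genes. The fibrillar median was above 0 in each of the 9 comparisons with control BM under each scaling, at the lowest 0.02 in set 2 DKO yBM under median-ratio scaling. Beaded filament genes had a median of -0.25 in set 1 DKO yBM, which turned to 0.02 under median-ratio scaling. Col6a3, which encodes a chain of type VI, was at 19.4, 44.6 and 40.9 TPM in set 2 control BM and 712, 141 and 122 TPM in DKO tumor. It was not called in the main fit. With only the 2 groups compared it was called, at 2.77 (limma adjusted p = 0.047).

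Among fibrillar genes only Col27a1, a minor collagen of developing cartilage, was called in the main fit. Its TPM was 4.76, 4.01, 2.46 and 2.3 in set 1 control BM, 0.387, 1.24, 1.19, 2.26, 0.367 and 0.514 in DKO yBM, and 0.19, 0.569 and 0.842 in DKO BMT. Both knockout groups lay below every control library, by a narrow margin for yBM 4. The difference was -1.17 in yBM (SE 0.30, limma adjusted p = 0.0319) and -1.50 in BMT (SE 0.35, limma adjusted p = 0.0418). In yBM the call was lost without any 1 of yBM 1, 5 or 6 or control BM 1, 2 or 4 (adjusted p 0.0612 to 0.0799), and in BMT when any single library except control BM 3 was left out (0.0687 to 0.108). In set 2 the control BM itself was at 0.569 to 0.827 TPM and the gene was called nowhere. Leaving out libraries with Wwox against the label gave -1.62 in yBM (adjusted p = 0.43) and -1.33 in BMT (0.176), and leaving out the 2 BMT libraries with Trp53 against it gave -1.84 (0.0989).

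Col8a1, a network collagen made by vascular and stromal cells, fell in the same set 1 groups. It was at 148, 173, 83.3 and 71.1 TPM in control BM, at 35.8, 71, 69.9, 48.7, 34.2 and 51.2 in DKO yBM, and at 49, 46.2 and 24.2 in DKO BMT. The groups did not overlap although yBM 2 and control BM 4 were close. The difference was -1.14 in yBM (SE 0.32, limma adjusted p = 0.0449) and -1.52 in BMT (SE 0.38, limma adjusted p = 0.0496). In yBM the call held when yBM 2 was left out and was lost without any other single library (adjusted p 0.0503 to 0.126). In BMT it held without control BM 3 and was lost without any other (0.0628 to 0.165). Leaving out libraries with Wwox against the label gave -1.60 in yBM (adjusted p = 0.454) and -1.70 in BMT (0.195). Contractile cell markers, a list of 6 genes that includes Acta2 and Tagln, had a mean log2(TPM + 1) of 6.48 to 8.79 in set 1 control BM, 6.58 to 7.59 in DKO yBM (0 of 6 called) and 5.04 to 5.37 in DKO BMT (3 of 6 called lower). Endothelial markers had a low mean in these groups, at 1.16 to 1.35 in control BM, 1.05 to 1.35 in DKO yBM and 0.82 to 1.13 in DKO BMT, with 3 of 6 tested and 0 called. Pecam1 was the exception, at 32.8 to 53.2 TPM in control BM, 27.2 to 76.8 in DKO yBM and 18.8 to 56.9 in DKO BMT. The part of contractile and endothelial cells in the Col8a1 and Col4a1 values was not tested. In set 2 Col8a1 was at 23.5, 121 and 93.7 TPM in control BM, 105, 200 and 136 in SKO yBM and 23.6, 66.4 and 20.2 in DKO yBM. SKO and DKO yBM did not overlap there, and the difference between them, -2.12, was not called (limma adjusted p = 1).

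Col10a1, the collagen of hypertrophic cartilage whose TATAAA-bearing window is printed above, was called lower in set 2 only. Its TPM was 1.43, 25.3 and 12.3 in control BM, so that control library a stood apart from the other two. It was 0.331, 0.468 and 0.0368 in SKO BMT, 0.497, 0.144 and 0.19 in SKO tumor and 0.319, 0.0584 and 0.13 in DKO tumor. All 9 of these libraries were under 0.5 TPM and below every control. The differences were -2.90 in SKO BMT (adjusted p = 0.0258), -2.90 in SKO tumor (0.0268) and -3.02 in DKO tumor (0.0164), by limma. DKO yBM 2 and DKO BMT 2 held 6.95 and 7 TPM, and their groups were not called. The calls were lost without control library b or c in all 3 comparisons. They were also lost without SKO BMT 1 or 3, without any 1 SKO tumor library or without DKO tumor 2, with adjusted p over all these of 0.0503 to 0.162. Without SKO BMT 2 and 3, whose Wwox went against the label, the SKO BMT difference was -2.83 (adjusted p = 0.187), an alternative added after seeing the data. With leukocyte level as a covariate the differences were -0.46 in SKO BMT (limma adjusted p = 0.918), 0.18 in SKO tumor and 0.06 in DKO tumor, and none was called. Leukocyte markers separated the same libraries, and their part in the Col10a1 result was not tested further.

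Col14a1, a FACIT collagen found on fibrils of dense connective tissue, had the largest differences. It was at 26.2, 16.5 and 21.8 TPM in set 2 control BM. It was at 0.0509, 0.0274 and 0.061 in SKO yBM, and at 0.0141, 0.0908 and 0 in DKO yBM. No yBM library reached 0.1 TPM. The differences were -4.40 in SKO yBM (SE 1.00, limma adjusted p = 0.00609) and -4.42 in DKO yBM (SE 1.00, limma adjusted p = 0.00484), and on this scale they understate the change of a gene near 0. Both calls held when any single library of the comparison was left out.

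Col14a1 was also called lower in SKO tumor (0.0995, 0.0282 and 1.67 TPM, a difference of -3.94, limma adjusted p = 0.0137). It was lower in SKO BMT (0.776, 3.49 and 0.0138 TPM, -3.46, adjusted p = 0.0286) and in DKO tumor (9.87, 0.0553 and 0.299 TPM, -3.17, adjusted p = 0.0368). The SKO tumor call was lost without control library a or SKO tumor 2, at adjusted p up to 0.0526. The SKO BMT call was lost without any single library other than SKO BMT 2, and the DKO tumor call without any other than DKO tumor 1 (adjusted p up to 0.0977 and 0.17). Without SKO BMT 2 and 3 the SKO BMT difference was -3.64 (adjusted p = 0.148). DKO BMT was not called, with 31.5 TPM in library 2, one of the leukocyte-rich libraries, and 0.377 and 0.0209 in libraries 1 and 3. With leukocyte level as a covariate the Col14a1 differences turned positive, 1.72 in SKO yBM and 1.71 in DKO yBM, and were not called. In set 1, control BM 1 to 4 had leukocyte levels of 5.78, 5.54, 7.79 and 7.79. They held 15.6, 49.2, 0.301 and 2.76 TPM of Col14a1. DKO yBM 1 to 6 had leukocyte levels of 7.40, 6.85, 4.30, 5.97, 6.86 and 6.45. They held 0.248, 0.574, 1.24, 47, 0.547 and 0.995 TPM of Col14a1. The part of leukocytes in the set 2 result was not tested further.

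Col7a1, the anchoring fibril collagen that ties basement membrane to the matrix below it, was the collagen called higher in the main fit. Other settings without a covariate also called Col1a2, Col2a1 and Col6a3 higher in set 2. With only the 2 groups compared, SKO yBM differed by 3.25 in Col2a1 (limma adjusted p = 0.043) and by 1.70 in Col6a3 (0.0466). Col7a1 TPM was 0.888, 2.59 and 3.03 in set 2 control BM and 11, 15 and 9.14 in SKO yBM. It was 20, 17.4 and 8.64 in DKO BMT and 4.79, 21.3 and 7.86 in DKO tumor. Each of these 9 libraries lay above the controls. The differences were 2.05 in SKO yBM (SE 0.59, limma adjusted p = 0.0275), 2.36 in DKO BMT (SE 0.59, 0.0128) and 1.80 in DKO tumor (SE 0.59, 0.0445). DKO yBM, at 4.69, 7.57 and 8.71 TPM, was also above every control and was not called in the main fit. The SKO yBM call held only without control library c and the DKO tumor call only without DKO tumor 1, among the fits that left out 1 library (adjusted p up to 0.135 and 0.236 in the others). The DKO BMT call was lost without control library a or DKO BMT 1 (0.06 and 0.0738). With leukocyte level as a covariate the differences were 3.34 in SKO yBM, 3.46 in DKO BMT and 3.08 in DKO tumor, and none was called (limma adjusted p 0.247, 0.199 and 0.296). In set 1 Col7a1 was at 0.443 to 5.95 TPM in control BM and was called nowhere.

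**Figure D5:**
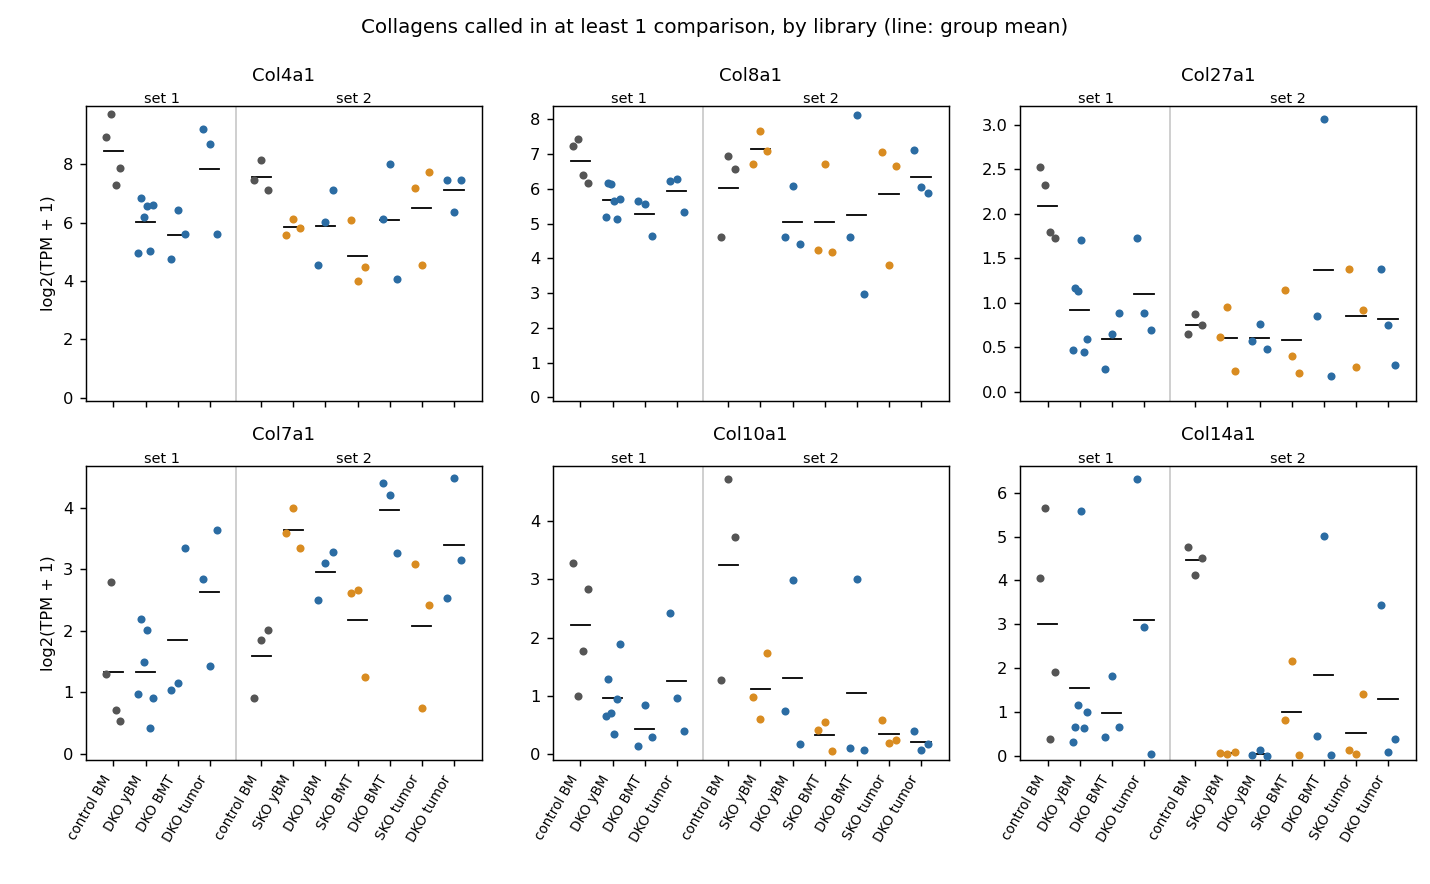
Expression of the 6 collagens called in at least 1 comparison, as log2(TPM + 1) on the y axes, in each library by group on the x axes, with a line at the group mean. Col14a1 was between 16.5 and 26.2 TPM in set 2 control BM and under 0.1 TPM in all 6 yBM libraries of that set, and Col7a1 lay above its set 2 controls in SKO yBM, DKO yBM, DKO BMT and DKO tumor.

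Of the most abundant members of each class, those not called are given by their range. Col12a1, a FACIT collagen of tendon and periosteum, was at 10.9 to 749 TPM over the 37 libraries, and Col16a1 at 13.6 to 208. Col6a1 and Col6a2 ranged from 31.6 to 1077 and from 20.3 to 971 TPM. Col15a1 ranged from 0.06 to 106 TPM and Col18a1, the source of endostatin, from 1.98 to 76.3. Col8a2 was at 20.7, 111 and 30.1 TPM in SKO yBM against 0.187, 9.32 and 8.95 in set 2 control BM, and was not called. Col13a1 was listed at 0 in 25 libraries, Col23a1 reached at most 4.7 TPM, Col26a1 3.26 TPM and Col28a1 5.35 TPM.

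A pair of libraries, chosen after their values were seen, stood apart in several collagens together with osteoblast markers. DKO BMT 1 of set 1 and SKO BMT 2 of set 2 had Col1a1 at 10011 and 14533 TPM, the highest values of the 37. Their type I share was 79% and 78%. They held Col11a2 at 63.3 and 36.2 TPM, against at most 2.56 in any other library. Col22a1, a FACIT collagen of tissue junctions, was at 34.2 and 10.4 TPM against at most 0.477 elsewhere, and Col13a1 at 14 and 3.25 against at most 0.222. Col24a1 was at 6.06 and 3.65 TPM. Their mean log2(TPM + 1) over 8 osteoblast markers was 7.70 and 7.60, against at most 5.84 elsewhere, with Bglap, the gene of osteocalcin, at 380 and 1637 TPM. Sp7, Ibsp and Dmp1 were also highest in this pair. Other members were not: Spp1 was at 421 and 503 TPM, against 197 to 2716 in set 1 control BM and 802 to 1083 in set 2. Alpl and Runx2 in DKO BMT 1 (1329 and 43.4 TPM) lay below set 1 DKO yBM 4 (1607 and 58.1). Phex in SKO BMT 2 (1.33 TPM) lay below set 2 DKO yBM 3 (2.38). Both libraries also went against their labels for Wwox, at 164% and 2.84% of the control mean. Without BMT 2 and 3, in which Trp53 went against the label, DKO BMT 1 alone differed from set 1 control BM in Col11a2 by 5.62 and in Col24a1 by 2.12. This is a single library that was chosen for these values, so the differences add no separate support.

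No collagen was called between DKO and SKO yBM or between DKO and SKO tumor of set 2, and BMT was not compared between the genotypes. Between set 2 DKO and SKO yBM limma called 0 of 25 collagens (1 at an unadjusted p under 0.05) and 0.0207% of all genes, and between the tumors 0 collagens (1 at an unadjusted p under 0.05) and 0% of genes. The yBM gene was Col2a1, the fibrillar collagen of cartilage, at 253, 398 and 223 TPM in SKO yBM and 34.4, 125 and 7.05 in DKO yBM. All SKO values were above all DKO values, with a difference of -3.10 (95% confidence interval -5.96 to -0.24, limma adjusted p = 1). The tumor gene was Col7a1, at 7.46, 0.67 and 4.33 TPM in SKO tumor, with a difference of 1.31 (0.06 to 2.55, limma adjusted p = 0.585). The type I share was 48.7% to 57.8% in DKO yBM and 42.5% to 47.2% in SKO yBM, without overlap and untested. Age within set 1 DKO yBM did not order the main genes, with Col1a1 at 657 to 4344 TPM at 1.5 months and 615 to 4776 at 4 months.

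Genes of collagen production and reception are given by list, and their calls are to be read beside the share of all genes called in the same comparison. Of 20 genes for hydroxylation, glycosylation, folding and export, 19 were tested. P3h2, a prolyl 3-hydroxylase known for acting on type IV collagen, was called higher in 5 of the 9 comparisons with control BM. It was at 0.224, 0.277 and 0.394 TPM in set 2 control BM and at 0.688 to 31.3 in the 18 knockout libraries of that set, so no knockout library overlapped. The differences were 3.99 in SKO yBM (limma adjusted p = 0.00066), 3.26 in DKO yBM (0.00362), 3.09 in SKO BMT (0.00708) and 2.81 in SKO tumor (0.0133), and 2.54 in set 1 DKO tumor (0.0448). Mia2, which helps load collagen into secretory carriers, fell in DKO yBM (-1.61, limma adjusted p = 0.0124), SKO BMT (-1.37) and SKO tumor (-1.90, 0.00484) of set 2. In SKO BMT this list had 3 genes higher and 1 lower of 19 tested, in a comparison that called 13.4% of all genes, and P3h1, another prolyl 3-hydroxylase, was higher by 2.15 (0.0196). The list median was between -0.29 and 0.48 in all 12 comparisons.

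Of 13 genes for propeptide processing and cross-linking, 10 were tested in set 1 and 12 in set 2. Loxl4, a lysyl oxidase-like enzyme of collagen cross-linking, was the gene called. It was higher in set 2 DKO yBM (24.6, 23.7 and 30.3 TPM against 0.851, 6.32 and 6.9 in control BM, a difference of 2.51, limma adjusted p = 0.019) and DKO BMT (2.28, 0.0438), 1 of 12 tested in comparisons that called 19.5% and 12% of all genes. No other member was called in any of the 12 comparisons. Of 12 receptor and uptake genes, 10 were tested in set 1 and 9 in set 2, and every call was lower. There were 3 calls in set 1 DKO yBM, where 7.81% of all genes were called, 2 in DKO BMT, where 2.35% were, and 1 or 2 in each set 2 comparison with control BM, where 11.6% to 19.5% were. Itga1, a chain of a collagen-binding integrin that prefers type IV, was at 27.9, 17.3, 13.4 and 12.9 TPM in set 1 control BM, at 3.17 to 7.07 in DKO yBM and at 3.48, 4.57 and 1.92 in DKO BMT. The differences were -1.60 (limma adjusted p = 0.00844) and -2.11 (0.007). Ddr1, a collagen receptor kinase, fell in the same groups by -1.34 (0.02) and -2.19 (0.00802). In set 2 neither Itga1 nor Ddr1 was called against control BM, and the calls there were for Lair1 and, in the tumor groups, also for Pepd. Lair1, an inhibitory collagen receptor of leukocytes, differed by -5.73 to -4.86 on the log2(TPM + 1) scale in all 6 set 2 comparisons with control BM, beside the leukocyte markers that separate the same libraries.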

How the data were processed

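Gene-level TPM of 37 libraries were used. Per the labels and methods, the authors trimmed reads (Trim Galore, version 0.6.1 in the submitters' processing notes and another in the methods), quantified them with Salmon against mm39 and deposited TPM, which keeps no depth, so depth per library is unknown and no counting error is given. The authors used DESeq2, which was not run here. Of 51123 identifiers, 48246 matched a symbol. Sequences are RefSeq, GRCm38.p6.

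Within each set, genes that reached 1 TPM in 3 or more libraries were fitted as log2(TPM + 1) with limma 3.58.1 (R 4.3.3), all groups together, with Benjamini-Hochberg adjustment over 14404 (set 1) or 14458 (set 2) genes and calls at an adjusted p under 0.05. This is the main fit, and a call given with no setting named refers to it. Python 3.11.15 was used for summaries. The fit was tested on simulated data. The text names every called collagen, the 2 leading genes of each class and, in the pathway lists, called genes among the 2 smallest p of a comparison, with Mia2 in SKO BMT added after its value was seen. Members and lists were chosen with earlier results of these data known. Controls of set 2 (3 columns) carry no library number and were called a, b and c. No libraries were duplicates.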

Additional observations from a re-analysis of the deposited data

Results flagged for a closer look

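For normally distributed values, chance meets Dixon's criterion for an outlier in about 1 test in 20. In groups of 4 or 6 libraries, 6 of 40 tests found by it a single library standing apart from its group. Given as the gap over the group's range, these were Col15a1 in set 1 control BM 2 (26 TPM, 0.963), Col14a1 in set 1 DKO yBM 4 (47 TPM, 0.839), Col13a1 in DKO yBM 3 (0.222 TPM, 0.87) and control BM 2 (0.0513 TPM, 1), and Col26a1 in DKO yBM 6 (0.157 TPM, 0.793) and control BM 4 (0.127 TPM, 0.89). All 4 values for Col13a1 and Col26a1 were under 1 TPM. Col13a1 was at 0 in the other set 1 control BM libraries, which by itself gives a gap of 1. The count of 6 in 40 therefore cannot be read as an excess over chance.

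Col8a1 lay on opposite sides of the control mean in SKO and DKO yBM of set 2, although both groups overlapped control BM and neither was called. Every SKO yBM library lay above the control mean and every DKO yBM library below it, with group means 67.5 TPM above and -42.7 TPM from the control mean. This opposition itself was not tested, and the limma difference between DKO and SKO yBM was -2.12 (adjusted p = 1).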

How the results depend on the processing

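Calls depended on the settings more than directions did. In set 1 DKO yBM, 3 collagens were called, against 0 with no filter on low values, 1 with median-ratio scaling, 0 with the replicate block and 0 without libraries whose Wwox went against the label. In set 1 DKO BMT, 2 became 0 with a pseudocount of 0.1, no filter, only the 2 groups compared, the replicate block, or without those Wwox libraries. Without the Trp53 libraries, which left DKO BMT 1 alone in its group, the Col11a2 difference between set 1 DKO tumor and DKO BMT was -5.28. In set 2, fits of only the 2 groups compared called 8 in SKO yBM, 4 in DKO yBM, and 1 each in SKO BMT, SKO tumor and DKO tumor. No filter gave 0 in SKO BMT and 1 in each tumor group, and a pseudocount of 0.1 gave 1 in SKO BMT and DKO tumor. Median-ratio scaling gave 2 in DKO yBM, 4 in SKO BMT and 2 in DKO BMT, leaving out mitochondrial genes gave 4 in SKO BMT, and leaving out SKO libraries with low Wwox (chosen after seeing the data) gave 0 there. With leukocyte level as a covariate the counts were 0 in DKO yBM, 2 in DKO BMT (Col1a1 and Col1a2) and 1 in each tumor group (Col8a2 in SKO, Col1a1 in DKO), all higher and with different genes from the fit without it, and Col14a1 turned to 1.72 in SKO yBM, 1.71 in DKO yBM, 1.38 in SKO BMT, 2.17 in SKO tumor and 2.95 in DKO tumor, and Col10a1 to 0.18 and 0.06 in SKO and DKO tumor. In set 2 the covariate varied within groups mainly through SKO BMT 2 and DKO BMT 2, so these differences extrapolate beyond most libraries. The cause of these changes was not tested.

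Leaving out 1 library gave 0 to 3 calls in set 1 DKO yBM, 0 to 2 in DKO BMT and 0 to 0 in both tumor comparisons. In set 2 it gave 1 to 2 in SKO and DKO yBM, 0 to 2 in SKO BMT and SKO tumor, 0 to 3 in DKO BMT and DKO tumor, and 0 to 0 between DKO and SKO. Where an arm kept 1 library, it is assumed to vary like the other groups. No fit without Wwox libraries could be made for set 2 DKO tumor, since none remained. Scaling changed the split of calls over all genes: 21.4% of calls were higher in set 1 DKO yBM and 62.3% with median-ratio scaling, 40.7% and 60.1% in DKO BMT, 35% and 60.1% in DKO tumor, and 17.4% and 32.5% in set 2 SKO tumor, and the median of all genes moved from -0.22 to 0 in set 1 DKO yBM and from 0.24 to 0.01 in set 2 SKO yBM. The study describes BMT and tumor as paired, and the labels do not say that a shared number marks 1 mouse. Deviations of same-numbered set 1 tumor and BMT libraries correlated at 0.066, 0.285 and -0.091, so pairing by number was not used, and with the replicate block 0 collagens were called between them, as without it. For set 2 comparisons with control BM no paired analysis was possible because the control columns carry no number.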
